A study of Mus musculus with 12 samples.

Results

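The replication-dependent histone genes encode the bulk of the proteins around which DNA is wound. They were taken here as the rows of the exon count table whose symbol begins with Hist1h, Hist2h, Hist3h or Hist4h and whose mean was at least 5 counts over the 12 libraries. Of 38087 rows in the table, 70 carried such a symbol and 49 of these reached the mean, so the members were chosen by their count level, which is described without a test. The last row inside was Hist1h2ai, with a mean of 5.67 counts, and the first rows outside were Hist2h2aa1 and Hist1h2ad, with 4.75 each. The members were 5 genes for the linker histone H1, 9 for H2A, 11 for H2B, 11 for H3 and 13 for H4. By the GENCODE M21 annotation of mm10, 39 lay on chromosome 13, 8 on chromosome 3, 1 on chromosome 6 and 1 on chromosome 11.

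The libraries were total RNA, depleted of ribosomal RNA, from livers of germ-free male C57BL/6j mice of 13 to 16 weeks, that is, mice raised without microorganisms. There were 6 libraries from mice injected subcutaneously with recombinant human growth hormone (GH) and 6 from mice given phosphate-buffered saline (PBS), over 5 days and 2 times daily, at ZT 2 and at ZT 14, where ZT counts hours from lights on. Livers were collected at ZT 2. The GH dose was 50 µg per mouse, and none of the sources used here says whether each injection or each day is meant. Growth hormone, secreted by the pituitary, reaches liver cells through its receptor and the transcription factor STAT5B, and the comparison asks how the injections change liver RNA in males that have no microbiota.

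Histones H2A, H2B, H3 and H4 form the core of the nucleosome, and H1 binds the DNA where it enters and leaves. The replication-dependent genes are known for being transcribed mainly in S phase, when new DNA has to be packed, and for messages that end in a stem-loop bound by the protein SLBP in place of a poly(A) tail. Most hepatocytes of an adult liver do not divide, and some of these genes are known to make polyadenylated messages in cells that have left the cycle. Because the libraries were depleted of ribosomal RNA and not selected for poly(A), messages of both kinds could be counted.

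The stem-loop was searched for in the annotated message downstream of the stop codon, as GGNNNTTNNNANNNCC with its stem bases paired. Of 48 members with a coding transcript, 40 had an annotated 3′ part of at least 16 bases, and 35 of these held a match, which began 21 to 54 bases after the stop codon (median 31). The stretches below, from the GENCODE M21 transcripts of mm10, show 1 gene for each form found plus a further H1 gene, with the stem-loop in capitals and 5 bases on each side. They are shown because the stem-loop is what sets these messages apart from most others.
Hist1h1c, chr13:23739507-23739532, plus strand: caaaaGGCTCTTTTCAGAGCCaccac
Hist1h1e, chr13:23621777-23621802, minus strand: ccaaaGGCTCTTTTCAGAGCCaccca
Hist1h3e, chr13:23561898-23561923, minus strand: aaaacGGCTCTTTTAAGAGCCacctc
Hist2h2ac, chr3:96220413-96220438, minus strand: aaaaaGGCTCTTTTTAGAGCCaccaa
Hist1h4h, chr13:23531453-23531478, plus strand: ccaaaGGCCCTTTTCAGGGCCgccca
Hist1h4i, chr13:22040961-22040986, minus strand: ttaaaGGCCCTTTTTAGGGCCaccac
Hist1h4b, chr13:23757361-23757386, plus strand: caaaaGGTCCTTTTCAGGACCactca
Hist1h4a, chr13:23760795-23760820, minus strand: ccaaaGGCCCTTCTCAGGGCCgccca

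The form of Hist1h1c and Hist1h1e was the most frequent, with 17 of the 35 matched members, and the form of Hist1h4h was found in 7, that of Hist1h3e in 5. The forms of Hist1h4i and of Hist1h4b were found in 2 members each, and those of Hist2h2ac and Hist1h4a in 1 each. In 21 of the 35 the annotated message ran on for at least 100 bases past the stem-loop, so that the annotation holds a longer form there. For Hist1h1c it ran on for 840 bases and had a poly(A) signal in its last 40 bases. The annotated transcript of Hist1h2bc is spliced, and its 742-base 3′ part held no match to the pattern.

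Depth ran from 19523104 to 23278931 counts per library, of which the members took 0.0397% to 0.0490%. Hepatocyte markers were abundant, with albumin (Alb) at 74870 ± 6339 counts-per-million (CPM, scaled by the TMM method; SD, n = 6) in PBS and 62486 ± 6754 in GH. Nothing in the labels says that the numbered samples of a group are separate animals, so the tests measure only the spread among these libraries. In bulk liver, fewer cells of a type and less RNA per cell cannot be told apart. PBS replicate 1 held the highest CPM of 8 of the 37 tested members, GH replicate 5 the highest of 6 and PBS replicate 2 the lowest of 12.

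Per kilobase of exonic length the highest level among the members was that of the H4 gene Hist1h4h, at 93.6 CPM per kilobase over all libraries. Hist1h2bc followed with 75.3, and then the H4 gene Hist1h4c with 44.0. Hist1h1c, Hist1h4d and Hist1h1e were at 39.4, 34.9 and 31.6. A wide gap separated these 6 from the next, the H2A gene Hist2h2ac at 16.1 CPM per kilobase. The genes of highest level were thus spread over 3 classes, and the highest H3 gene, Hist1h3e, had 8.61 CPM per kilobase in PBS and 8.35 in GH. The length used includes annotated bases past the stem-loop, 46 in Hist1h4h, 454 in Hist1h4c, 770 in Hist1h4d, 840 in Hist1h1c and 1153 in Hist1h1e. For Hist1h2bc, where no stem-loop was matched, it includes a 3′ part of 742 bases. Where the counted messages ended was not measured, so the order of these genes holds only for the annotated lengths.

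In the GH livers 2 members rose, the linker histone gene Hist1h1c and the H2B gene Hist1h2bc, and the other tested members did not pass. Of the 49, 37 passed the filter on low counts, and 12 with means of 5.67 to 8.50 counts did not, among them 5 of the 11 H3 genes. Among the 37 tested, 2 were called higher (5.41%), where 2.27% of all 14235 tested genes were called higher, by edgeR's quasi-likelihood test at a Benjamini-Hochberg adjusted p under 0.05. None was called lower, where 2.52% of all tested genes were, while 2 were lower at an unadjusted p under 0.05 and DESeq2 called 0 lower. At that unadjusted threshold in edgeR were 4 of the 37 members and 2702 of all 14235 tested genes, counting both directions. The unadjusted counts of the lists below are to be read beside that share. In either direction 4.79% of all tested genes were called, a share near that of the members. Both called members had high counts. Of the 2048 genes with a mean count at least that of Hist1h1c, 9.91% were called, and 3 members reached that depth. The groups did not overlap in 2 of the 37 members, against 3.18% of all tested genes. The median log2 fold change of the 37 was -0.05, beside 0.00054 for all tested genes, with 15 values above 0 and 22 below.

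**Figure D1:**
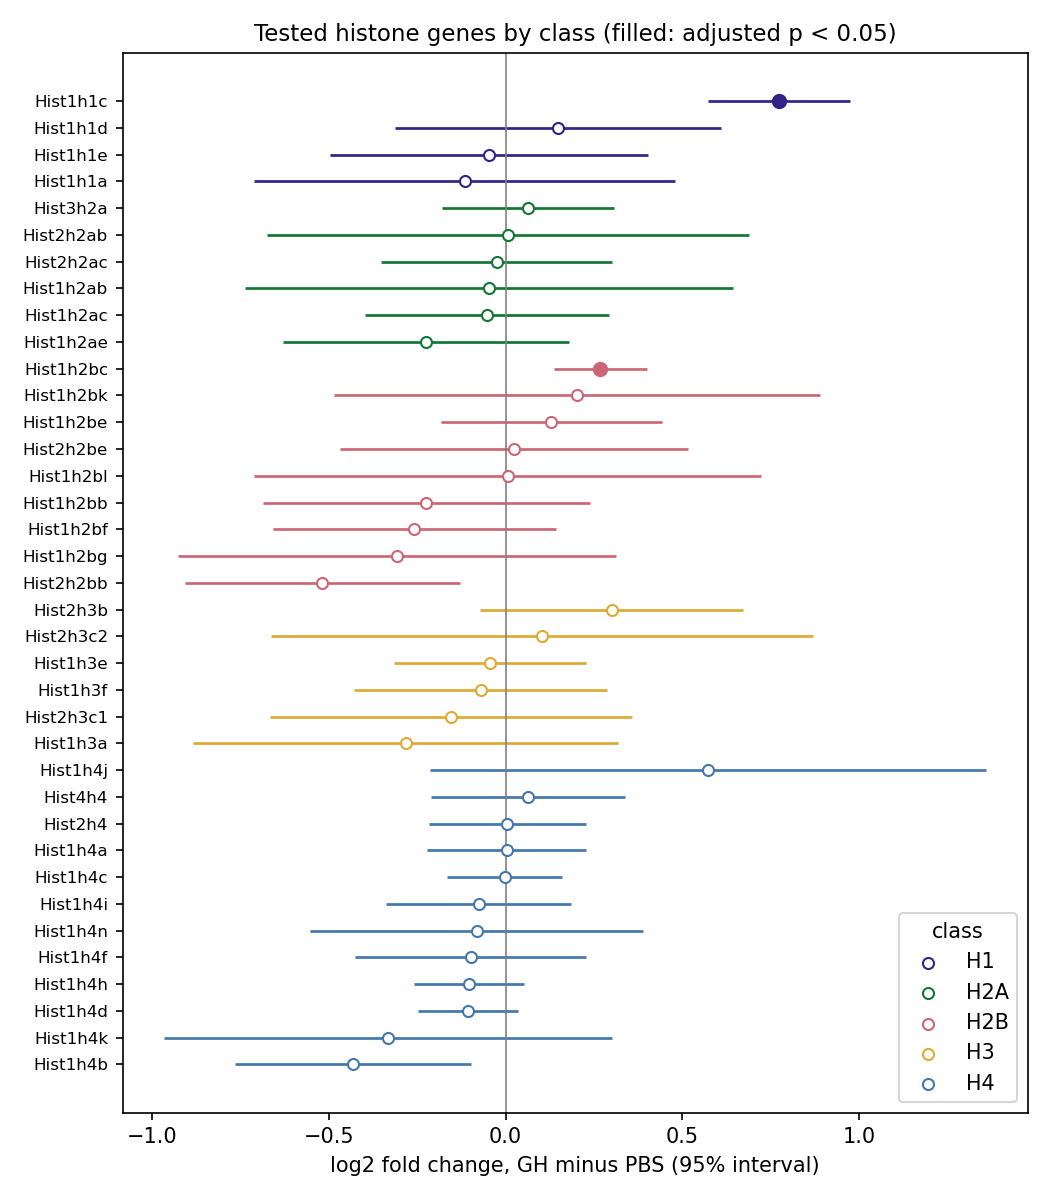
Log2 fold change (GH minus PBS) of each of the 37 tested histone genes, ordered by class and value, with 95% intervals from edgeR's quasi-likelihood fit; filled points passed an adjusted p of 0.05. Hist1h1c at 0.77 and Hist1h2bc at 0.27 are the filled points, and of the other intervals only those of Hist2h2bb and Hist1h4b leave out 0.

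Among the linker histone genes, Hist1h1c encodes H1.2, one of the main H1 proteins of non-dividing cells. It lies on chromosome 13 from 23738808 to 23740367 as a gene without introns. In PBS its CPM ran from 41.6 through a median of 44.6 to 51.7, and in GH from 62.6 through 78.5 to 91.7. Every GH library thus lay above every PBS library. The mean went from 45.4 ± 3.93 to 77.6 ± 11.9 CPM (SD, n = 6), a fold change of 1.71 with a 95% interval of 1.49 to 1.96. On the log2 scale this was 0.77 ± 0.09 (SE; edgeR's quasi-likelihood test, Benjamini-Hochberg adjusted p = 0.000235). The call held in all 12 fits that left out 1 library, with values from 0.72 without GH replicate 5 to 0.83 without GH replicate 1 and a highest adjusted p of 0.00114. Of its 125-base stretches 3.27% also occur in another gene's transcript, Hist1h1d or Hist1h1e.

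Hist1h1e encodes H1.4 and was the other H1 gene with a high level. Its CPM ran from 47.3 through 55.0 to 98.8 in PBS and from 46.2 through 53.5 to 86.9 in GH. The groups overlapped almost fully, with the highest values in PBS replicate 1 and GH replicate 5. The log2 fold change was -0.05 with a 95% interval of -0.50 to 0.40 (edgeR adjusted p = 0.937), and it was 0.13 without PBS replicate 1 and -0.18 without GH replicate 5. Its exons share 496 bases on the same strand with those of Hist1h2be, so some reads could belong to either.

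The remaining H1 genes were much lower. Hist1h1d, which encodes H1.3, had 5.54 CPM in PBS and 6.14 in GH, with a log2 fold change of 0.15 (95% interval -0.31 to 0.61). Hist1h1a, which encodes H1.1, had 1.33 and 1.24 CPM, with -0.12 (-0.71 to 0.48). Hist1h1b, which encodes H1.5, had a mean of 8.00 counts and was not tested.

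With the rise of Hist1h1c, the balance between the 5 H1 genes among the members differed between the groups. The replication-independent H1f0 is outside this set. As a share of the CPM per kilobase of the 5 H1 genes, Hist1h1c took 37.2% to 51.1% in the PBS libraries and 51.8% to 65.4% in the GH libraries. Hist1h1e took 44.5% to 57.4% in PBS and 32.1% to 44.3% in GH. Neither share overlapped between the groups. By these shares Hist1h1e was the larger of the pair in 4 of 6 PBS libraries and in 0 of 6 GH libraries. This order depends on the exonic lengths, 1930 bases for Hist1h1e and 1560 for Hist1h1c. In CPM not divided by length, Hist1h1e was also the larger in PBS replicate 4 (51.6 against 45.3) and replicate 5 (47.3 against 43.9). The same held in GH replicate 6 (71.2 against 67.3). Annotated length also sets the small share of Hist1h1d, which has 7425 exonic bases against 741 for Hist1h1a. In PBS its mean share was 1.15% against 2.80% for Hist1h1a, though its CPM was 5.54 against 1.33. The mean share of Hist1h1e went from 49.2 ± 4.54% to 36.9 ± 5.21%, and that of Hist1h1c from 46.0 ± 4.84% to 59.6 ± 5.46% (SD, n = 6). Shares of a sum are tied to each other and are not independent, and Hist1h1c had been called in these same libraries. The shares are therefore a description without a test.

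**Figure D2:**
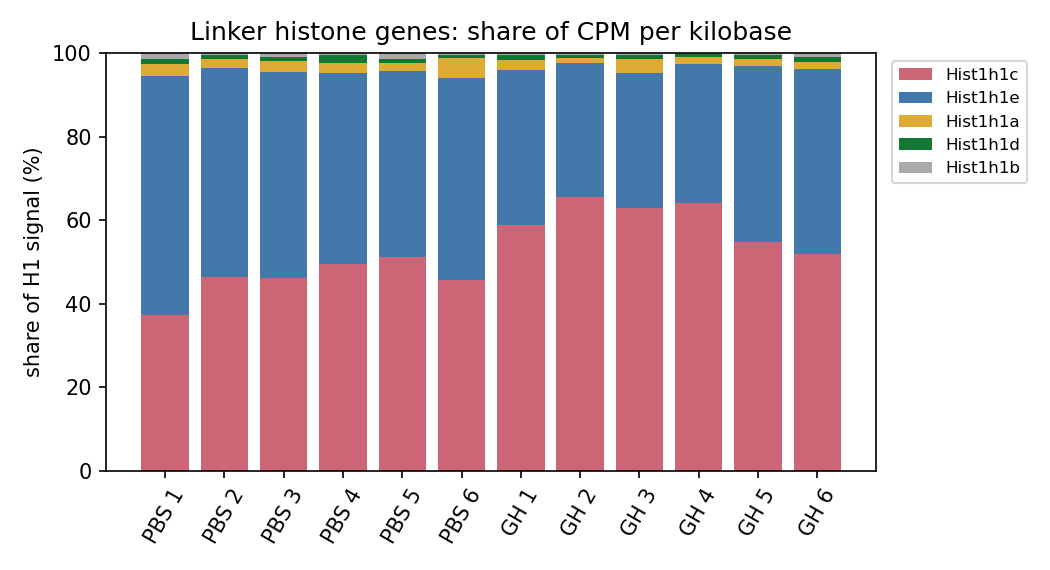
Share of each linker histone gene in the summed CPM per kilobase of the 5 H1 genes (percent), as stacked bars for the 12 libraries. Hist1h1c takes 37.2% to 51.1% of the bar in PBS and 51.8% to 65.4% in GH, and Hist1h1e takes most of the rest.

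The log2 ratio of Hist1h1c to Hist1h1e went from -0.41 ± 0.29 to 0.39 ± 0.33 (SD, n = 6), higher by 0.80 in the GH livers, and the groups did not overlap. The ratio to Hist1h1a differed by 0.88 and that to Hist1h1d by 0.55, both with overlap. Hist1h1c was chosen for these ratios because it had been called in the same libraries, so they are a description without a test.

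Both leading H1 genes have a RefSeq promoter, of which the 150 bases before the annotated start are shown because the genes share a class and a level but not the difference between groups. Capitals mark AAACACA, the H1 box known from H1 promoters, CCAAT, and TATAAA, searched on both strands (GRCm38.p6, given 5′ to 3′ on the gene's strand).
Hist1h1c, chr13:23738657-23738806, plus strand: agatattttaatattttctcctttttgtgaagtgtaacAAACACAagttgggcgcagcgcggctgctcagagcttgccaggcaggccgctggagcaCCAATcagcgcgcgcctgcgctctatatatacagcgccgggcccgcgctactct
Hist1h1e, chr13:23622559-23622708, minus strand: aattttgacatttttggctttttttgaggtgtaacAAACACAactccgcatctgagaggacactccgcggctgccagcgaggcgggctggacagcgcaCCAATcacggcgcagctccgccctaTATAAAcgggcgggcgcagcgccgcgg

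The H1 box began 112 bases before the start in Hist1h1c and 115 in Hist1h1e, and CCAAT 54 and 52 bases before it. TATAAA stood 27 bases before the start of Hist1h1e, and these exact letters are not in the window of Hist1h1c. That window does hold the similar letters tatatata between CCAAT and the start. Only exact letters were searched, so close variants of a motif were not counted here or below. Among the 44 members with a promoter in the RefSeq table (from 250 bases before to 50 after the start), AAACACA was found in 4 of 5 H1 genes and 1 of 9 H2A genes, and in 7.18% of all 32851 promoters. The octamer ATTTGCAT was found in 5 of 9 H2A and 4 of 9 H2B promoters and in 1.74% of all, TATAAA in 26 of 44 and 13.6% of all, and CCAAT in 35 of 44 and 37.4% of all. Promoters of neighbouring genes on opposite strands can overlap, so these counts are not all separate sites. The octamer of Hist1h2ae, for example, is the same stretch as that of Hist1h2bg, read from the other strand. CCAAT was in every one of the H1, H2A, H2B and H3 promoters in the table and in 3 of 12 of H4. A match describes the letters and is not evidence of a bound factor.

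Among the core histone genes, Hist1h2bc encodes an H2B protein and lies on chromosome 13 from 23684199 to 23692908. Its CPM ran from 71.7 through 78.1 to 89.6 in PBS and from 90.2 through 94.4 to 103 in GH. The highest PBS library and the lowest GH library lay close together but did not overlap in TMM-scaled CPM. The TMM factors were 1.006 to 1.038 in the PBS libraries and 0.959 to 0.998 in the GH libraries. As a share of library totals the groups overlapped. PBS replicate 5 had 1929 of 21259501 counts, a larger share than the 1852 of 20758173 in GH replicate 3. The mean went from 79.0 ± 5.97 to 95.1 ± 4.52 CPM (SD, n = 6), a fold change of 1.204 with a 95% interval of 1.099 to 1.319. On the log2 scale it rose by 0.27 ± 0.06 (SE; edgeR adjusted p = 0.0197). The call was lost without GH replicate 1 (adjusted p = 0.0546) and without PBS replicate 6 (0.0506). It was also lost with scaling by library totals alone (0.21, adjusted p = 0.0516). Without PBS replicate 1 and GH replicate 5, an alternative added after the data were seen, it was 0.24 (adjusted p = 0.0738). Of its 125-base stretches 21.8% also occur in another gene's transcript.

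**Figure D3:**
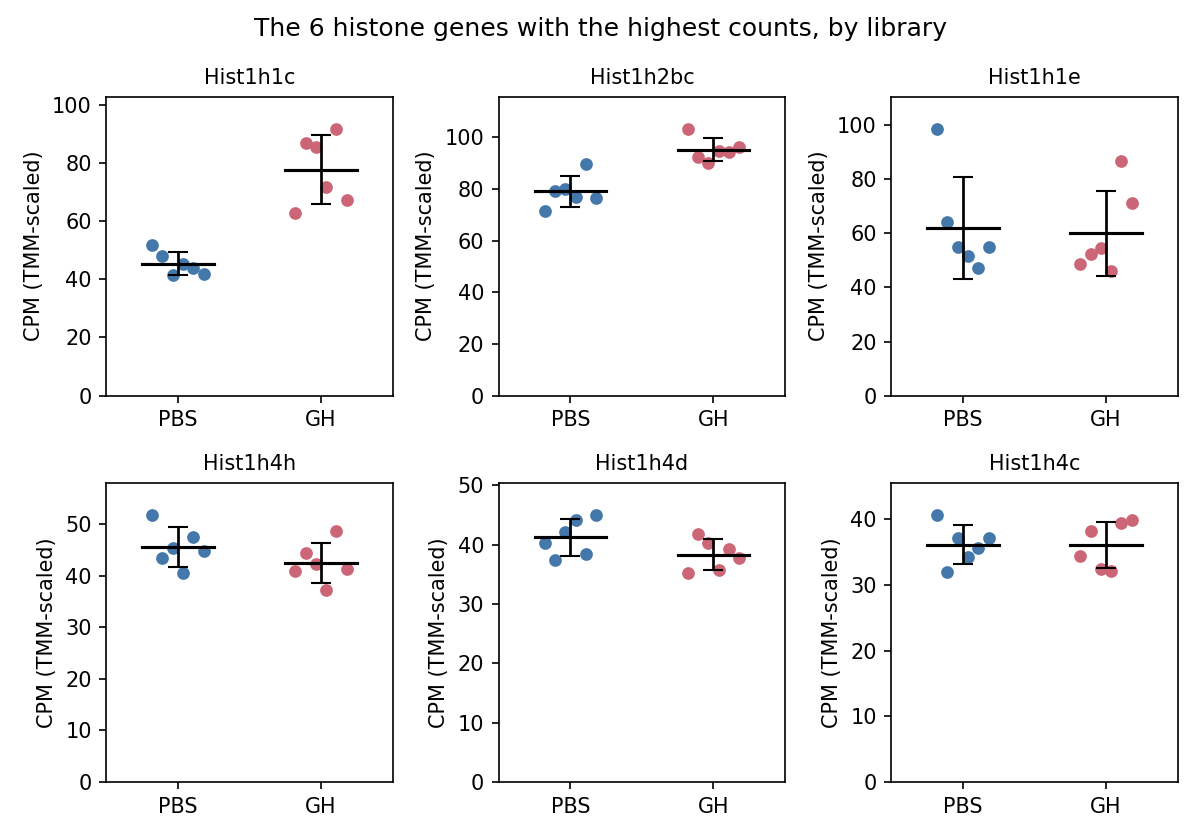
CPM (TMM-scaled) of the 6 histone genes with the highest counts in the 6 PBS and 6 GH libraries; points are libraries, horizontal lines means and bars 1 SD. For Hist1h1c and Hist1h2bc every GH point lies above every PBS point, and for the other 4 the groups overlap.

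The H2A gene Hist1h2ac lies 251 bases from Hist1h2bc on the opposite strand, an arrangement common to H2A and H2B pairs. It had 2.53 ± 0.409 CPM in PBS and 2.44 ± 0.454 in GH, with a log2 fold change of -0.05 (95% interval -0.40 to 0.29). Of the members, the next nearest was the H4 gene Hist1h4c, which lay 4727 bases away and had 36.2 ± 2.97 and 36.1 ± 3.53 CPM. The 2 called genes lay 45900 bases apart. The tested member nearest to Hist1h1c was the H2B gene Hist1h2bb, 6367 bases away, with 1.63 ± 0.441 and 1.39 ± 0.354 CPM and a log2 fold change of -0.22 (95% interval -0.69 to 0.24).

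The other 8 tested H2B genes did not pass, and their log2 fold changes ran from -0.52 to 0.20. Hist2h2bb was the lowest of all tested members. Its CPM ran from 2.53 to 4.92 in PBS and from 1.71 to 3.39 in GH, with overlap between the groups. The log2 fold change was -0.52 with a 95% interval of -0.91 to -0.13 (edgeR adjusted p = 0.129). The M21 annotation gives its identifier to a non-coding gene, Gm42743, and the symbol to another, so the row may count either. The log2 ratio of Hist1h2bc to each of these 8 genes was higher in GH, with differences from 0.06 for Hist1h2bk to 0.78 for Hist2h2bb and overlap in every pair, again as a description of a gene chosen for its call. Hist1h2bf had 1.61 CPM in PBS and 1.34 in GH, a log2 fold change of -0.26 (95% interval -0.66 to 0.14).

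None of the 6 tested H2A genes passed in edgeR, and their log2 fold changes ran from -0.22 to 0.06. Hist2h2ac, the highest of them per kilobase, ran from 7.01 through 7.78 to 12.0 CPM in PBS and from 6.46 through 7.69 to 11.8 in GH. The groups overlapped, each with 1 library far above the others. Its log2 fold change was -0.03 with a 95% interval of -0.35 to 0.30, or 0.10 without PBS replicate 1 and -0.15 without GH replicate 5. Hist3h2a had 4.44 and 4.64 CPM (log2 fold change 0.06), but its exons overlap Trim17 by 708 bases on the same strand. The counts of those rows were equal in 4 libraries and at most 6 apart in the others, so this row may hold reads of Trim17. Hist1h2ae had 1.56 and 1.33 CPM, a log2 fold change of -0.22 (95% interval -0.63 to 0.18).

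None of the 6 tested H3 genes passed in edgeR either. Hist1h3e, the highest per kilobase, had 7.20 CPM in PBS and 6.98 in GH, a log2 fold change of -0.04 (95% interval -0.32 to 0.23). Hist1h3f had 4.11 and 3.92 CPM, with -0.07 (-0.43 to 0.29). Hist2h3b was the third highest of all tested members by log2 fold change, at 0.30 with a 95% interval of -0.07 to 0.67 (edgeR adjusted p = 0.384). It had 3.02 CPM in PBS and 3.72 in GH, with overlap between the groups, and 75.5% of its 125-base stretches occur in other transcripts.

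The H4 genes held 3 of the 6 highest levels, and none of the 12 tested passed in edgeR. Hist1h4h ran from 40.5 through 45.03 to 51.8 CPM in PBS and from 37.3 through 41.7 to 48.6 in GH. The groups overlapped, and the log2 fold change was -0.10 with a 95% interval of -0.26 to 0.05 (edgeR adjusted p = 0.495). Hist1h4d had 41.2 and 38.3 CPM with -0.11 (95% interval -0.25 to 0.03). Hist1h4c had 36.2 and 36.1 CPM with -0.0029 and a 95% interval of -0.17 to 0.16. The intervals of these 3 genes reached neither the 0.77 of Hist1h1c nor the 0.27 of Hist1h2bc on the higher side.

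Values farther from 0 in the H4 class came from genes of low count. Hist1h4b ran from 2.35 to 3.21 CPM in PBS and from 1.68 to 2.79 in GH, with a log2 fold change of -0.43 (95% interval -0.76 to -0.10; edgeR adjusted p = 0.140). Hist1h4k had 0.899 and 0.713 CPM with -0.33 (-0.97 to 0.30). Hist1h4j had 0.370 and 0.562 CPM with 0.57 (-0.21 to 1.36; edgeR adjusted p = 0.441). Precision followed depth: the 14 tested members with a mean under 50 counts had half-widths of the 95% interval from 0.40 to 0.79, the 6 with the highest counts from 0.13 to 0.45, and the 17 between them from 0.22 to 0.49. Where the half-width was above the 0.27 of Hist1h2bc, as in all of the 14 and in Hist1h1e (0.45), a change of that size was not detectable. The 17 between had a median half-width of 0.33, also above 0.27. These intervals are not adjusted for the number of genes tested, whereas the calls are. A change of 0.27 could thus go uncalled at half-widths below 0.27 as well.

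Summed over each class, the CPM of H1 genes went from 115 ± 24.2 in PBS to 145 ± 24.4 in GH (SD, n = 6), a ratio of 1.27. The groups overlapped through PBS replicate 1, at 161.7, and the ratio without that library alone was 1.38. That ratio keeps GH replicate 5, which was also far above the rest of its group, at 187.5 against at most 149.6. H2B went from 97.5 ± 7.65 to 112 ± 4.70, a ratio of 1.15, with overlap through PBS replicate 5. H2A, H3 and H4 had ratios of 0.984, 0.999 and 0.954, and their groups overlapped. All 49 members together had 414 ± 28.4 and 451 ± 33.4 CPM, a ratio of 1.09, and the 47 without Hist1h1c and Hist1h2bc had 289 ± 29.4 and 279 ± 26.5, a ratio of 0.963. The sums are descriptions without a test, and Hist1h1c with Hist1h1e made up most of the H1 sum and Hist1h2bc most of the H2B sum.

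**Figure D4:**
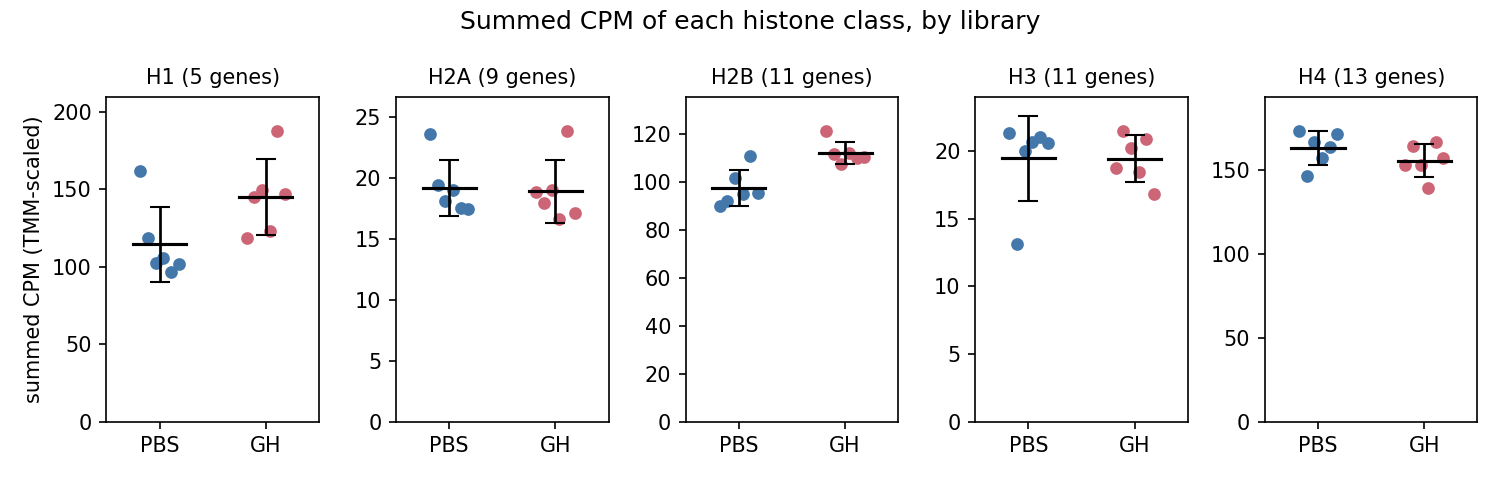
Summed CPM (TMM-scaled) of each histone class in the 6 PBS and 6 GH libraries; points are libraries, horizontal lines means and bars 1 SD. H1 has means of 115 and 145 and H2B of 97.5 and 112, while H2A, H3 and H4 have ratios of 0.984, 0.999 and 0.954.

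Of the 29 tested members with a matched stem-loop, 19 had at least 100 annotated bases after it. Hist1h1c was among these, and the other 18 did not pass the test. The matched members with shorter annotated ends did not pass either. Of all 14235 tested genes, 4.79% were called in either direction by edgeR. Whether calls go with the length of the annotated end cannot be read from Hist1h1c alone. Hist1h2bc, with no match in its annotated 3′ part, is not among the 29. Which end the counted messages had was not measured, since the counts are per gene.

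**Figure D5:**
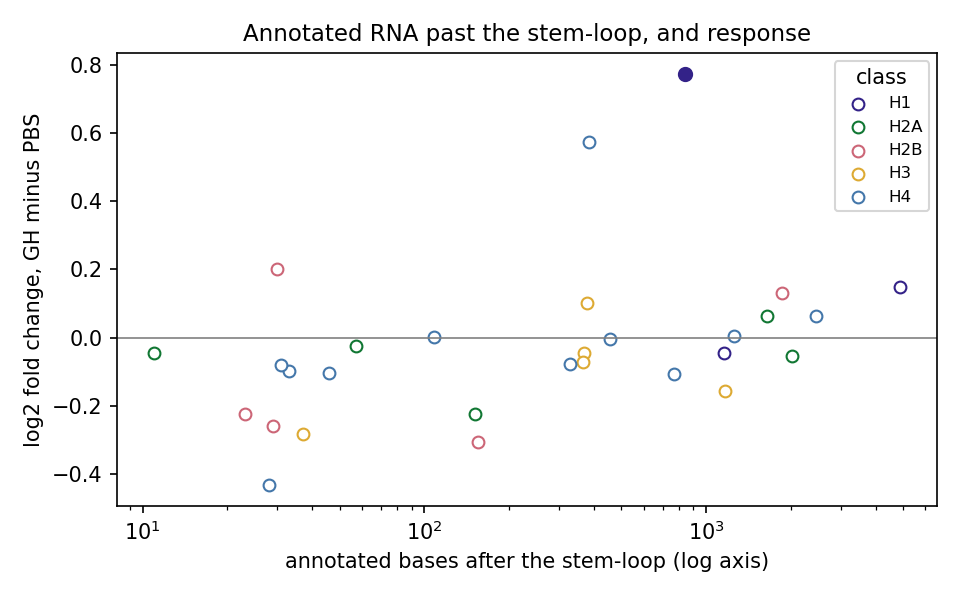
Log2 fold change (GH minus PBS) against the number of annotated bases after the stem-loop (log axis) for the 29 tested members with a match, coloured by class; the filled point passed an adjusted p of 0.05. Hist1h1c lies at 840 bases and 0.77, and the other genes with annotated ends of at least 100 bases lie on both sides of 0, from Hist1h2bg at -0.31 to Hist1h4j at 0.57.

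Genes that act on these messages were read from a list of 37, of which 35 were tested. None rose in edgeR, where 2 were higher at an unadjusted p under 0.05 and DESeq2 called 0, and 2 fell, where 2.52% of all tested genes were called lower. The median was -0.05. Snrpd3, a core protein of the small nuclear RNPs, fell by 0.41 on the log2 scale (edgeR adjusted p = 0.0322), and Fip1l1, a subunit of the polyadenylation complex, fell by 0.24 (edgeR adjusted p = 0.0424). These calls were lost in 7 and 9 of the 12 fits that left out 1 library. Slbp, which binds the stem-loop, was at 12.8 ± 0.841 CPM in PBS livers and 13.1 ± 1.23 in GH livers (log2 fold change 0.03, edgeR adjusted p = 0.901). Npat, the activator of histone transcription, had 13.3 ± 2.72 and 13.2 ± 1.52 CPM (edgeR adjusted p = 0.974). Of the U7 snRNP proteins that take part in cutting the 3′ end, Lsm10 had a log2 fold change of 0.09 (edgeR adjusted p = 0.644) and Lsm11 one of 0.41 (0.155). Casp8ap2, which encodes the processing factor FLASH, had -0.24 (edgeR adjusted p = 0.269).

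Replication-independent histones are made outside S phase from polyadenylated messages. Of 9 tested genes 2 rose, where 2.27% of all tested genes were called higher, and none fell in edgeR, with 0 lower at an unadjusted p under 0.05 and 0 in DESeq2, and the median was 0.06. H2afv, an H2A.Z gene, went from 18.5 ± 1.53 to 22.6 ± 1.49 CPM (log2 fold change 0.29, edgeR adjusted p = 0.0281), and Cenpa, the H3 variant of centromeres, from 1.52 ± 0.323 to 2.45 ± 0.387 (0.69, edgeR adjusted p = 0.0327). The calls were lost in 6 and 8 of the 12 fits that left out 1 library. H1f0, the linker variant of differentiated cells, had 115 ± 6.30 CPM in PBS and 108 ± 6.36 in GH (-0.09, edgeR adjusted p = 0.484). H3f3a and H3f3b, the H3.3 genes, had log2 fold changes of 0.05 and -0.05, and H2afz had 0.07.

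Chaperones carry histones to and from DNA. Of 25 tested, 0 passed in edgeR, where 4.79% of all tested genes were called in either direction, and 0 in DESeq2. At an unadjusted p under 0.05 in edgeR, 2 were higher and 2 lower, where 2702 of all 14235 tested genes passed in either direction. The median was -0.03. Chaf1a, a subunit of the assembly factor CAF-1, had 0.940 and 1.02 CPM, and Asf1b had 0.246 and 0.357 CPM and was not tested.

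Of 34 tested S phase genes 1 rose in edgeR, near the 2.27% of all tested genes called higher. None fell, where 2 were lower at an unadjusted p under 0.05 and DESeq2 called 0 lower, with a median of 0.10. Tk1, thymidine kinase, went from 13.6 ± 3.67 to 22.2 ± 4.67 CPM (log2 fold change 0.71, edgeR adjusted p = 0.0419), and its call was lost in 9 of the 12 fits that left out 1 library. The proliferation markers Mki67 and Top2a had log2 fold changes of 0.23 and 0.52 (edgeR adjusted p = 0.665 and 0.422). Pcna, the clamp of the replication fork, had -0.16 (edgeR adjusted p = 0.330). The cyclin genes Ccne2 and Ccna2 had 0.10 and -0.33 (edgeR adjusted p = 0.873 and 0.665).

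Of 11 tested RNAs without a poly(A) tail outside the histone genes, 0 passed in edgeR, where 4.79% of all tested genes did. At an unadjusted p under 0.05 in edgeR, 2 were higher and 5 lower, where 2702 of all 14235 tested genes passed in either direction. DESeq2 called 1 higher and 1 lower. Their median was -0.06, and their summed CPM ran from 14038 to 15164 in PBS and from 15014 to 16773 in GH, with overlap.

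Markers of other cell types that liver can hold were read beside the called genes. Of all tested genes 2.27% were called higher and 2.52% lower. In the erythroid list, 1 of 4 tested genes rose, Alas2, the heme synthesis enzyme of red cell precursors, from 77.6 ± 21.5 to 171 ± 21.6 CPM (log2 fold change 1.14, edgeR adjusted p = 0.00302), while the 3 globin genes did not pass. The summed level of the list ran from 77.2 to 338 CPM in PBS and from 196 to 393 in GH. In the stellate cell and fibroblast list, 1 of 6 changed, Dcn, a matrix proteoglycan, which fell by 0.38 (edgeR adjusted p = 0.00296), and the sum ran from 355 to 411 CPM in PBS and from 325 to 392 in GH. The B and plasma cell sum ran from 1.96 to 2.93 CPM in PBS and from 2.65 to 3.83 in GH, with 0 of 2 tested genes passing and 0 at an unadjusted p under 0.05 or in DESeq2; Cd79a had 0 counts in at least 1 PBS library. No tested gene of the hepatocyte, macrophage, endothelial, cholangiocyte, T and NK cell and neutrophil lists passed in edgeR, where 3 were higher and 1 lower at an unadjusted p under 0.05 and DESeq2 called 1 higher and 1 lower. All these sums overlapped. The part of these cells in the increases of Hist1h1c and Hist1h2bc was not tested.

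Counts of near-identical genes carry their own limit. In 13 of the 49 members more than 50% of the 125-base stretches occur in transcripts of other genes, 6 of them among the 37 tested. Hist1h2br and Hist1h2ao had equal counts in 10 of the 12 libraries, and neither was tested. Hist2h3c1 lies wholly within the exons of Gm20634 on the same strand. None of the sources used here says how reads with several matches were counted.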

How the data were processed

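A stranded kit and 250 ng of RNA per library were used with 12 amplification cycles, and both ends were read for 125 cycles, per the labels' protocols. The authors deposited raw counts of exonic reads per gene, without normalization; STAR 2.4.0i and mm10 are named in the submitters' processing notes, while the sources used here name no counting program, annotation or strand setting. Counts were fitted in R 4.3.3 with edgeR 4.0.16: filterByExpr with a minimum count of 10, TMM scaling, group as the only term, a robust quasi-likelihood F test (two-sided), Benjamini-Hochberg adjustment over all 14235 genes tested and a threshold of 0.05. SE is the absolute log2 fold change over the square root of F. The fit was tested on simulated data. Alternatives were DESeq2 1.42.0, other scalings and filters, a replicate block and fits without single libraries.

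Of the 49 members 44 were matched to GENCODE M21 by identifier and 5 by symbol. No protein sequences were used. Named members were those called, the 3 highest per kilobase in each class, the 3 highest and 3 lowest log2 fold changes, those at the edge of the count rule, and, chosen after values were seen, Hist1h1b, Hist1h1d, Hist1h2ac and rows with shared reads. The members and the lists were chosen with earlier results of these data known. The stem-loop pattern was loosened at 1 base and AAACACA and the ratios of pairs were added after the data were seen. Single values of some marker genes are not reported here.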

Additional observations from a re-analysis of the deposited data

Results flagged for a closer look

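Over both groups together, 60 sets of values from 6 libraries were examined for a library whose gap to the nearest other, as a share of the range, exceeded Dixon's 95% critical value, and 10 were found where chance gives about 1 in 20. PBS replicate 1 was high for 6 of them: Hist1h1e (98.8 CPM, others at most 64.3), Hist2h2ac (12.0, others at most 8.50), the sum of all members (469.6, others at most 409.7), the H1 sum (161.7, others at most 118.7), the H2A sum (23.6, others at most 19.4) and the sum of replication-independent histones (449.0, others at most 418.0). GH replicate 5 was high for Hist2h3b (5.06 CPM, others at most 3.75) and for the H2A sum (23.8, others at most 19.0). GH replicate 1 was high for the H2B sum (121.0, others at most 112.0), and PBS replicate 2 was low for the H3 sum (13.1, others at most 21.3).

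The sets share genes and libraries, so they are not independent of each other. None of the libraries was left out of the values given above. The cause was not tested.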

How the results depend on the processing

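Hist1h1c stayed higher and past the threshold under every alternative run. Hist1h2bc stayed higher, and its adjusted p was 0.0516 with library totals alone, 0.0787 with the replicate block, 0.0738 without PBS replicate 1 and GH replicate 5, and 0.00493 to 0.0546 without single libraries; members called higher were then 1 under each of these 3 settings and 1 to 2 without single libraries. The same-numbered samples did not deviate together over all tested genes (correlations -0.20 to 0.18, 0 of 6 best with their own number). A weak pairing, or one limited to some genes, would not show in these correlations. Counts of all genes higher and lower were 323 and 359, against 504 and 554 in DESeq2, 211 and 658 with library totals, 180 and 211 with the block, 172 higher without the pair of libraries, and 193 to 410 higher without single ones. With totals the medians of processing genes and chaperones were -0.11 and -0.088, 1 chaperone and 1 S phase gene were called lower, and 1 replication-independent histone higher. Processing genes called lower were 1 with no filter, 0 with the block, 1 without the pair and 0 to 2 without single libraries. Replication-independent histones higher were 0 with no filter or the block, 1 without the pair and 0 to 2 without single libraries. S phase genes higher were 0 with no filter or without the pair and 0 to 1 without single libraries, and chaperones 0 to 1 each way. Uncalled values changed sign: without the pair Hist1h1e was 0.0017 and Hist1h4c 0.0070. Without single libraries Hist1h1e ran from -0.18 to 0.13, Hist1h1a from -0.33 to 0.041, Hist2h2ac from -0.15 to 0.10, Hist1h4c from -0.038 to 0.031, Hist1h3f from -0.17 to 0.021 and Hist1h3e from -0.13 to 0.0057. With a mean of at least 20 counts there were 29 members. The cause of these shifts was not tested.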
